A study of Homo sapiens with 8 samples.

Results

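Oxidative phosphorylation couples the transfer of electrons from NADH and succinate to oxygen with the synthesis of ATP in the inner mitochondrial membrane. Complex I and complex II feed electrons to ubiquinone, complex III passes them to cytochrome c, complex IV reduces oxygen, and ATP synthase uses the proton gradient that complexes I, III and IV build. Most subunits are encoded in the nucleus, and the transcription factors NRF1, the ETS protein GABPA and YY1 are known to bind many of their promoters. Lymphoid leukaemia cells rely on respiration as well as glycolysis, and glucocorticoids are known to reduce glucose uptake in lymphoid cells.

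The nuclear genes of these 5 complexes were described across 8 Affymetrix exon arrays of RS4;11, a B-cell precursor acute lymphoblastic leukaemia line that carries an MLL fusion. Cells transduced with a BTG1 shRNA vector or with a control shRNA vector were exposed to prednisolone, a synthetic glucocorticoid, or to vehicle for 8 h, and total RNA of each of the 4 groups was hybridised to 2 arrays. The groups were thus BTG1 shRNA with prednisolone, BTG1 shRNA with vehicle, control shRNA with prednisolone and control shRNA with vehicle. Neither the prednisolone dose nor whether the transduced cells were a clone or a pool is given in the sources used here. The study selected genes that changed by over 2 fold with prednisolone and compared those changes between the vectors. Members were all genes whose symbol begins with NDUFA, NDUFB, NDUFC, NDUFS, NDUFV, SDHA to SDHD, UQCR, COX4 to COX8, ATP5F, ATP5M or ATP5P, without the assembly factors, and each gene was read from its cluster with the highest mean. The rule gave 63 genes of the 14232 genes that had a cluster of their own, from 17881 transcript clusters in all. They comprised 4 core and 23 accessory subunits of complex I, 3 subunits of complex II, 5 of complex III, 9 of complex IV, 6 tissue-restricted complex IV isoforms, and 3 F1 and 8 Fo, stalk or membrane subunits of ATP synthase. COX7A2L, a COX7A relative, was counted with complex IV. The other 2 matched only by prefix: ATP5MGL and the pseudogene UQCRBP1. Subunits encoded in mitochondrial DNA are outside the rule.

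The arrays did not all carry the lineage of the labelled line. The 13 T-cell markers had array medians of 8.83 to 9.28 (log2 level) on the 4 arrays labelled BTG1 shRNA, against 4.08 to 5.20 on the 4 control arrays. CD3D, a chain of the T-cell receptor complex, had 10.97 and 11.23 on the prednisolone arrays labelled BTG1 shRNA and 11.44 and 11.49 on the vehicle arrays with that label, against 3.31 and 3.24 on control prednisolone arrays and 3.42 and 3.32 on control vehicle arrays. The T-cell marker CD2 was at 2.83 to 3.16 on all 8 arrays. The 12 B-lineage markers had array medians of 4.18 to 4.42 on the arrays labelled BTG1 shRNA, against 8.81 to 9.28 on the control arrays, and the B-cell factor PAX5 had 4.06 to 4.52 against 9.34 to 10.16. The cluster assigned jointly to BTG1 and LINC01619 had 8.14, 7.80, 7.15 and 7.42 on the arrays labelled BTG1 shRNA, against 10.51, 10.70, 9.34 and 9.36 on the control arrays. A difference between the vectors and a difference between a T-lineage and a B-lineage cell population therefore cannot be told apart in any comparison across the label, and the arrays are called by their label throughout. In bulk RNA, fewer cells of a type and less RNA per cell cannot be told apart either. No label states that the replicate arrays came from separate cultures, so p-values measure the spread between arrays, which may be technical. The first control vehicle array had a narrower spread of levels than the others, with an interquartile range of 2.95 against 3.39 to 3.80. Array 1 also had the narrower range in the other groups. It was 3.39 against 3.67 and 3.57 against 3.80 on prednisolone and vehicle arrays labelled BTG1 shRNA, and 3.45 against 3.67 in control prednisolone. The members' median was lower on array 1 in all 4 groups. The main fit did not model the replicate number, and a replicate block was among the alternatives. Several results that rest on the first control vehicle array, but not all, are given with and without it.

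Promoters were available for 52 of the 63 genes, as the 250 bases upstream of the first listed RefSeq start on GRCh38.p14. The nuclear respiratory factor 1 (NRF1) site, spelled GCGC, any 1 base, then TGCGC, was searched on both strands and was present in 11 of the 52 promoters (21.2%), against 5.53% of 27305 promoters of all genes. The ETS and GABPA core CCGGAAG was likewise in 11 (21.2%), against 8.82%. The YY1 core AANATGGCG was in 2 (3.85%, against 1.4%). The members' median GC content was 61.6%, against 58% for all promoters, and the part of GC content in these shares was not tested. The glucocorticoid response element, AGAACA and TGTTCT around 3 bases, was in 0 of the 52 member promoters and in 1 of the 27305, and its arm AGAACA alone was in 4 members (7.69%, against 12.4%). The E box CACGTG was in 5 (9.62%, against 6.49%) and TATAAA in 7 (13.5%, against 11.1%). A match describes letters in this window and is not a measured binding site.

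The 4 upstream windows below are shown because SDHA and UQCR11 held the most respiratory factor motifs, and because COX8A and NDUFS8 are among the genes whose levels differed across the label. SDHA is on the plus strand at chr5:218070-218319, UQCR11 on the minus strand at chr19:1605463-1605712, COX8A on the plus strand at chr11:63974370-63974619 and NDUFS8 on the plus strand at chr11:68030431-68030680. Each is written 5′ to 3′ in the direction of the gene and ends at the base before the start. Capitals mark the NRF1 sites in SDHA, NRF1 sites with ETS cores and an E box in UQCR11, an ETS core in COX8A and a YY1 core in NDUFS8.
SDHA: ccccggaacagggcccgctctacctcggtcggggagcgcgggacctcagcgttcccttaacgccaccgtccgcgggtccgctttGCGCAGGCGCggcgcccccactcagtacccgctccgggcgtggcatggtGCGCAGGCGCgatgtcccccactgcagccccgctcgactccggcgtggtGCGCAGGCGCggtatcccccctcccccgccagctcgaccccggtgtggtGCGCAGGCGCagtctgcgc
UQCR11: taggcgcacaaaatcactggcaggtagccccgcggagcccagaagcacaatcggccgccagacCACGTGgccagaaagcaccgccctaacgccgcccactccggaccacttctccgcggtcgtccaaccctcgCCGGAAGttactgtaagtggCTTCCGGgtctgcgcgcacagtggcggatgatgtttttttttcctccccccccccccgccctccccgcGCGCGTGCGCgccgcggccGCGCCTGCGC
COX8A: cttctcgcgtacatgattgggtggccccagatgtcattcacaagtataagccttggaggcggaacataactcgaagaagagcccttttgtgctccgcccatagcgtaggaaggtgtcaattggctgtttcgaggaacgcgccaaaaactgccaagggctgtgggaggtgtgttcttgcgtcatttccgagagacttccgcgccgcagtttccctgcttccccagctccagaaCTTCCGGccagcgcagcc
NDUFS8: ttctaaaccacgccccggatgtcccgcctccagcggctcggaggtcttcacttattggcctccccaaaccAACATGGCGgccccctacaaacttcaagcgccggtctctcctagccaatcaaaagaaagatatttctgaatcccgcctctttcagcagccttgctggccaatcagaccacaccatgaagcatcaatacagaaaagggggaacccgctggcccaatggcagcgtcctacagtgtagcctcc
The 4 SDHA sites began 166, 117, 68 and 19 bases upstream of the start, a spacing of 49 bases between each neighbouring pair. In UQCR11 the NRF1 sites began 29 and 10 bases upstream and the ETS cores 117 and 97 bases upstream. The ETS core of COX8A began 18 bases upstream and the YY1 core of NDUFS8 began 180 bases upstream.

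Most members gave a steady signal across the 8 arrays. The median over members was 8.06 to 8.42 per array (log2 level), against 5.14 to 5.45 for all clusters. Each member's range from lowest to highest array had a median of 0.92 on the log2 scale, against 1.01 for all clusters, and 38 of 63 members (60.3%) ranged by less than 1, against 49.5% of all clusters. ATP5F1A, the alpha chain of the F1 head, stayed at 11.21 to 11.56, COX4I1, the common form of complex IV subunit 4, at 6.77 to 7.07, and COX5B, another nuclear complex IV subunit, at 8.30 to 8.73. At the other end, 2 members ranged by over 2, the complex II membrane anchor SDHC at 2.82 to 8.16 and the complex I accessory subunit NDUFA5 at 4.89 to 8.29.

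A set of 23 genes of other tissues, such as lens, liver and skin, had cluster means of 2.58 to 5.72. The means of 13 members were no higher than 5.72, and that of UQCRBP1, at 2.31 to 2.49 over the arrays, was below the whole range. These were all 6 tissue-restricted complex IV isoforms (COX4I2, COX6A2, COX6B2, COX7A1, COX7B2 and COX8C), both prefix matches, and 5 genes of subunits that mitochondria of most tissues contain: NDUFB3, NDUFS4, SDHD, ATP5PB and ATP5PD. SDHD, an anchor of complex II, was at 2.61 and 2.88 on prednisolone arrays labelled BTG1 shRNA, 2.71 and 3.21 on vehicle arrays with that label, 3.09 and 3.51 on control prednisolone arrays and 2.45 and 3.33 on control vehicle arrays. Where a cluster is this dim, a small difference cannot be read as a difference in RNA. The heart and muscle isoform COX7A1 had group means of 4.35 ± 0.58, 3.99 ± 0.19, 4.29 ± 0.18 and 4.43 ± 0.38 (SD, n = 2) in the same order of groups, and its widely expressed counterpart COX7A2 had 10.36 ± 0.69, 10.96 ± 0.02, 9.93 ± 0.43 and 9.89 ± 0.34. COX4I2, the lung isoform induced by low oxygen, had 4.01 ± 0.15, 3.79 ± 0.24, 4.02 ± 0.19 and 4.58 ± 0.79. COX6A2, another heart and muscle form, had 4.91 ± 0.27, 4.75 ± 0.67, 4.82 ± 0.36 and 5.41 ± 0.75. The testis form COX6B2 had 4.20 ± 0.20, 4.25 ± 0.21, 4.14 ± 0.18 and 4.54 ± 0.58, and its common counterpart COX6B1 had 11.49 ± 0.34, 11.67 ± 0.09, 11.38 ± 0.34 and 11.55 ± 0.06. By group means these isoforms were in the dim range in each of the 4 groups, and so was COX7B2, at 2.77 to 3.26 over all 8 arrays against 7.63 to 8.27 for its common counterpart COX7B.

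**Figure D1:**
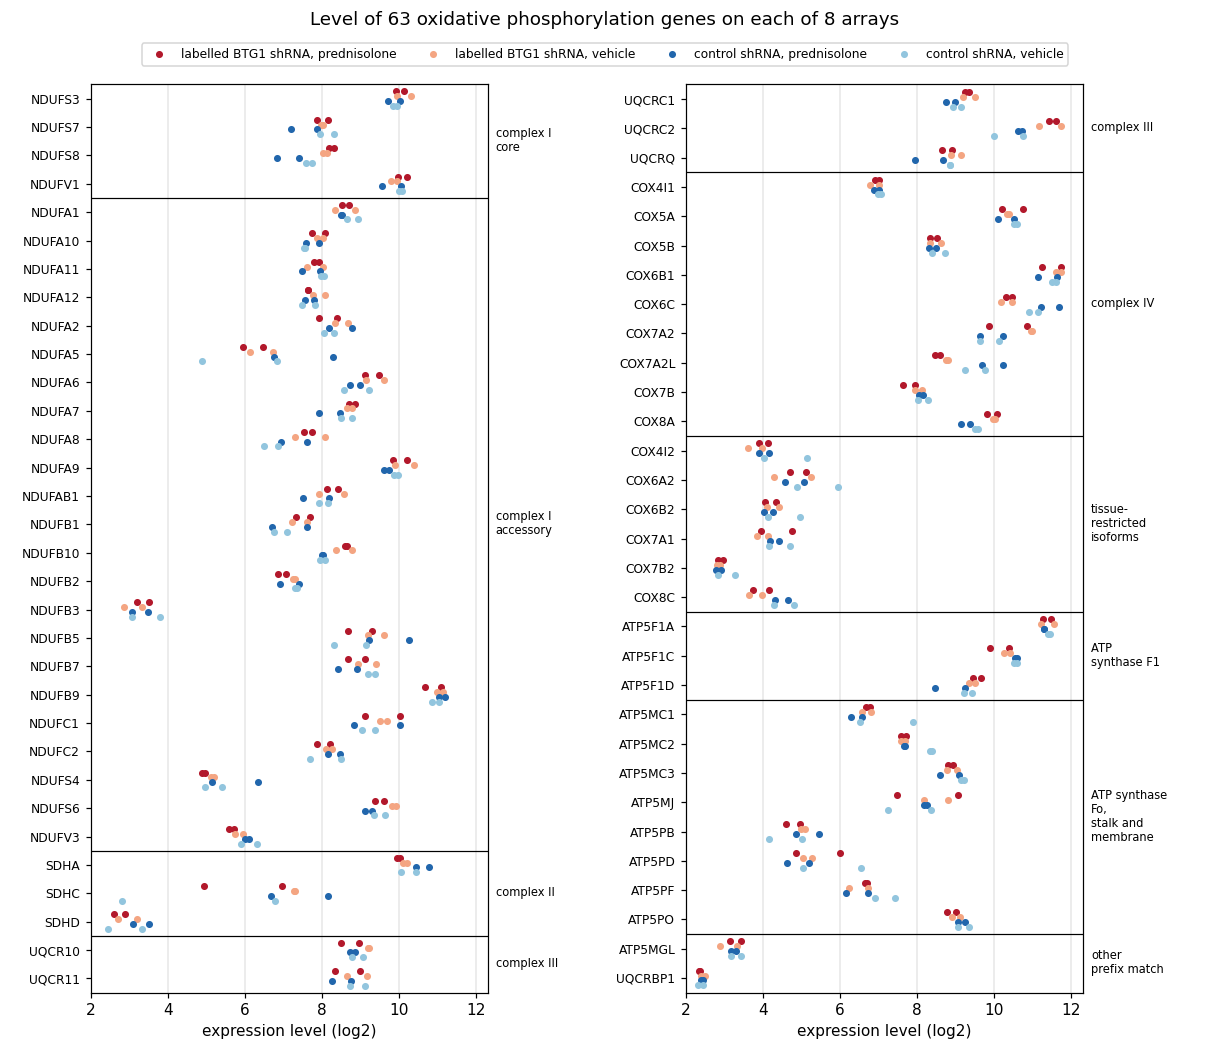
Log2 expression level (x axis) of each of the 63 genes (rows, grouped by complex) on each of 8 arrays, with 2 points per group and colours for the 4 groups. Most genes lie within 1 log2 unit across arrays, whereas SDHC ranges from 2.82 to 8.16 and the tissue-restricted isoforms lie in the range of genes of other tissues.

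Whether prednisolone changed the subunit genes was asked first within the arrays labelled BTG1 shRNA. No member passed limma's test at an adjusted p below 0.05, as was true of all 17881 clusters (0%). At an unadjusted p below 0.05 limma gave 0 of 63 members and 1.04% of all clusters. The fit shares 1 estimate of the spread over the 4 groups, so these tests and intervals also carry the spread of the control arrays. The median difference between a group's 2 arrays over all clusters was 0.25 and 0.18 with this label (prednisolone, vehicle). It was 0.21 and 0.44 in control cells. For members it was 0.27 and 0.26, against 0.35 and 0.30. With only the 2 groups compared, 0 members passed. The members' median log2 difference, prednisolone minus vehicle, was -0.06, against 0.03 for all clusters. Members were brighter than most clusters. Among clusters with a mean level of at least 7, the median was -0.08 for 44 members and -0.09 for all 4712. For 51 of 63 members (81%) the 95% interval of the difference lay within a 2-fold change either way, which held for 80.6% of all clusters. The arrays did not overlap for 2 members that were higher and 12 that were lower with prednisolone, against 18% and 10.5% of all clusters.

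UQCR10, a small complex III subunit, had 8.50 and 8.95 on prednisolone arrays labelled BTG1 shRNA, against 9.21 and 9.20 on vehicle arrays with that label. The prednisolone values were both below the vehicle values, and the log2 difference was -0.49 ± 0.21 (SE; 95% interval -0.98 to 0.00; limma adjusted p = 1; -0.71 to -0.26 without single arrays). COX7A2, a complex IV subunit, had 9.87 and 10.84 against 10.95 and 10.98, a log2 difference of -0.61 ± 0.36 (-1.09 to -0.12 without single arrays). Both its prednisolone arrays were again below both vehicle arrays, but they lay nearly 1 log2 unit apart from each other. SDHC had the most negative difference, -1.33, with 4.95 and 6.97 against 7.27 and 7.31. It did not pass, and ranged from -2.34 to -0.32 over the alternatives. The dim clusters COX7A1 (0.36 ± 0.31), NDUFB3 (0.27 ± 0.35) and ATP5PD (0.28 ± 0.55) had the most positive differences, and none passed (limma adjusted p = 1 each). With the first of the prednisolone arrays left out, COX7A1 and ATP5PD had -0.05 and -0.30, and NDUFB3 had 0.03 without the first of the vehicle arrays.

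In control cells, 0 of 63 members passed limma's test for prednisolone against vehicle, against 1.52% of all clusters. At an unadjusted p below 0.05, limma gave 6 members (9.52%), against 14.1% of all clusters. The median log2 difference was -0.13 for members and -0.16 for all clusters, most of which were dimmer than the members. Among clusters with a mean level of at least 7, it was -0.14 for 44 members and 0.08 for all 4712. For 40 of 63 members (63.5%) the 95% interval lay within a 2-fold change either way, against 59% of all clusters. Simulated data had the same groups, few changed genes and the same spread in every group. On them limma recovered 5% of genes changed 2 fold and 76% of genes changed 4 fold in this comparison. Under those settings a 2-fold change of a single subunit would mostly have been missed. The prednisolone and vehicle arrays did not overlap for 6 members that were higher and 15 that were lower with prednisolone, where 15.3% and 26.4% of all clusters did so.

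ATP5MC2 is one of several genes that encode the same mature c-ring subunit of ATP synthase. It had 7.66 and 7.67 on control prednisolone arrays, against 8.39 and 8.32 on control vehicle arrays. These 4 arrays formed 2 tight, separate pairs, with a log2 difference of -0.69 ± 0.16 (SE; 95% interval -1.07 to -0.31; limma adjusted p = 0.11). ATP5MC1, a second gene for the same mature subunit, had 6.57 and 6.29, against 7.89 and 6.51. Its difference of -0.77 ± 0.40 (limma adjusted p = 0.426) came mainly from the first control vehicle array and was -0.08 without that array. ATP5MC3, the other gene of this kind, had 8.60 and 9.09, against 9.13 and 9.20.

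The complex I core subunits NDUFS7 and NDUFS8, which carry iron-sulphur clusters, both had lower prednisolone values in control cells without passing the test. NDUFS8 had 7.40 and 6.84 with prednisolone, against 7.74 and 7.58 with vehicle, a log2 difference of -0.54 ± 0.22 (limma adjusted p = 0.336). NDUFS7 had 7.86 and 7.19, against 8.32 and 7.96, a log2 difference of -0.61 ± 0.26 (limma adjusted p = 0.352). In both genes every prednisolone array was below every vehicle array. NDUFV1, the flavin-binding core subunit, averaged 9.80 ± 0.34 with prednisolone and 10.04 ± 0.08 with vehicle (SD, n = 2 each), and NDUFS3 averaged 9.86 ± 0.22 and 9.90 ± 0.09. On the arrays labelled BTG1 shRNA, the prednisolone and vehicle means were 8.01 ± 0.20 and 8.00 ± 0.04 for NDUFS7, 10.09 ± 0.17 and 9.87 ± 0.11 for NDUFV1 and 10.03 ± 0.15 and 10.13 ± 0.24 for NDUFS3.

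Among accessory subunits of complex I, NDUFA5 had 6.76 and 8.29 on control prednisolone arrays, against 4.89 and 6.83 on control vehicle arrays. The groups overlapped, and the log2 difference was 1.67 ± 0.69 (limma adjusted p = 0.338), ranging from 0.70 to 2.63 over the alternatives. NDUFB5 had 9.22 and 10.25, against 8.30 and 9.14, a log2 difference of 1.01 ± 0.43 (limma adjusted p = 0.344; 0.50 to 1.53 without single arrays). Its prednisolone arrays were both above its vehicle arrays. The 4 stalk subunits of ATP synthase that were members had differences of both signs with prednisolone, and none passed. ATP5PF had 6.72 and 6.16, against 6.90 and 7.43 (log2 difference -0.73 ± 0.29, limma adjusted p = 0.319; -1.01 to -0.45 without single arrays). The dim ATP5PD had 5.19 and 4.61, against 6.55 and 5.04 (-0.90 ± 0.54), and the difference was -0.14 without the first control vehicle array. ATP5PO had 9.07 and 9.24, against 9.35 and 9.05 (-0.04 ± 0.20). The dim ATP5PB had 4.84 and 5.44, against 4.14 and 5.02 (0.56 ± 0.33), and all 3 pairs of groups other than ATP5PF overlapped.

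SDHC had 6.67 and 8.16 on control prednisolone arrays, against 2.82 and 6.78 on control vehicle arrays. A single value, 2.82 on the first control vehicle array, lay far below the rest. The log2 difference was 2.61 ± 1.22 (limma adjusted p = 0.39). Without the first control vehicle array it was 0.63, and without the second it was 4.60 with an adjusted p of 0.0438. ATP5MC1 also passed without that second array, at -1.46 with a limma adjusted p of 0.0313, so that 2 members passed in place of 0. SDHA, the flavoprotein of complex II, averaged 10.61 ± 0.25 with prednisolone and 10.23 ± 0.28 with vehicle (SD, n = 2 each).

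**Figure D2:**
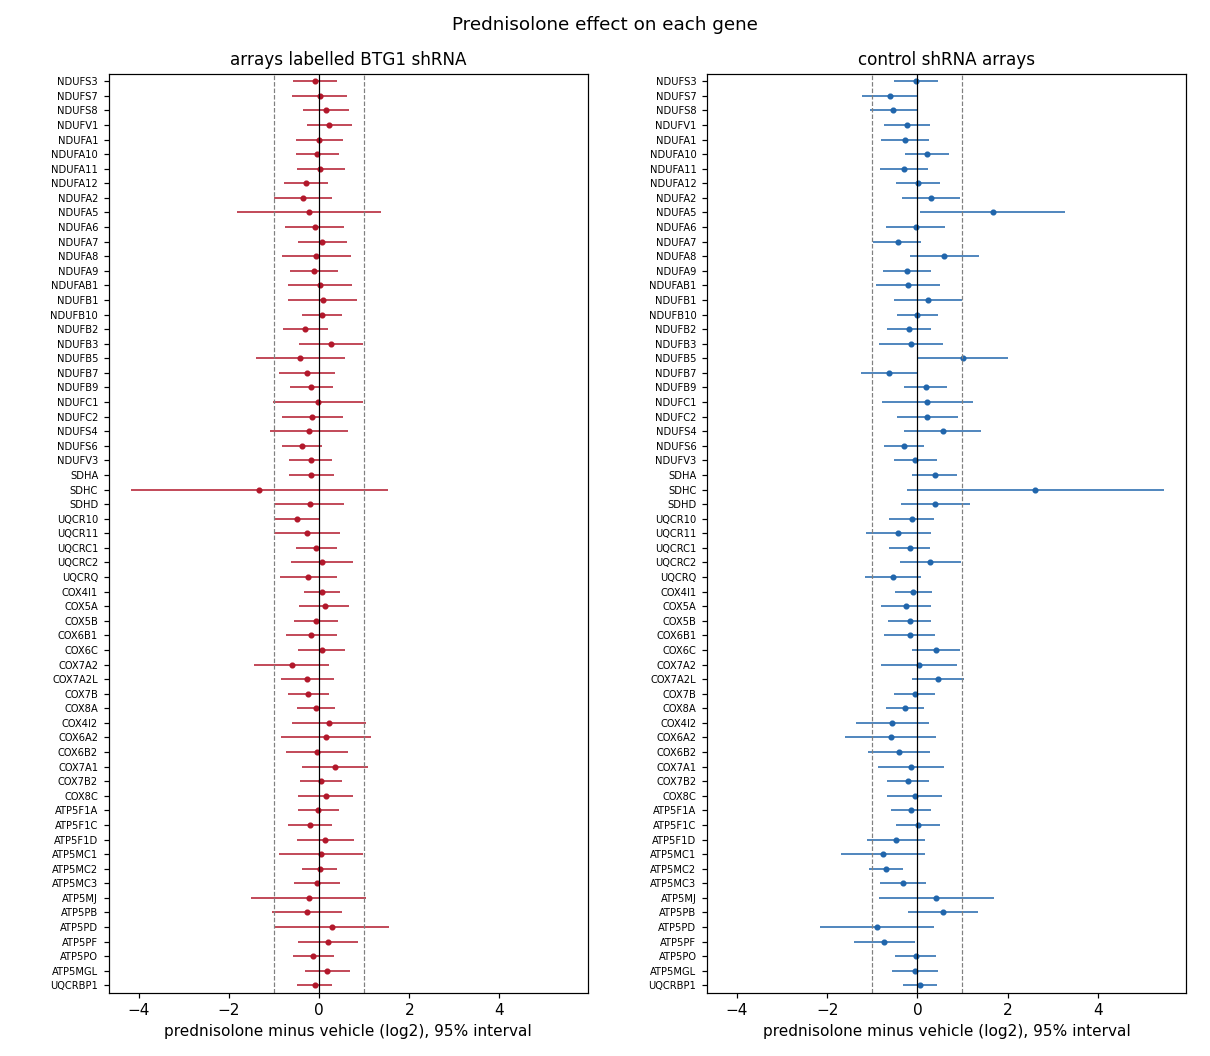
Log2 difference, prednisolone minus vehicle, of each of the 63 genes with its 95% interval from limma, for arrays labelled BTG1 shRNA (left) and control shRNA arrays (right), dashed lines marking 2-fold changes. Intervals lie within the dashed lines for 51 genes on the left and 40 on the right, and SDHC has the widest interval in both.

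The difference between the prednisolone effects, arrays labelled BTG1 shRNA minus control arrays, passed limma's test for 0 of 63 members, against 0.134% of all clusters. At an unadjusted p below 0.05, limma gave 2 members (3.17%), against 9.31% of all clusters. The members' median was 0.07, against 0.20 for all clusters, and it was -0.11 with array medians subtracted. Among clusters with a mean level of at least 7, the median was -0.06 for members and -0.17 for all. ATP5MC2 had a difference of effects of 0.70 ± 0.23 (limma adjusted p = 0.469), as its levels were 7.71 and 7.58 with prednisolone and 7.69 and 7.59 with vehicle on the arrays labelled BTG1 shRNA. The most negative differences of effects were those of SDHC (-3.94 ± 1.73), NDUFA5 (-1.89 ± 0.97) and NDUFB5 (-1.43 ± 0.60). For NDUFB5 the limma adjusted p was 0.536, and the difference was -1.95 to -0.92 without single arrays. The most positive were those of the dim ATP5PD (1.17 ± 0.77), ATP5PF (0.93 ± 0.40) and ATP5MC1 (0.82 ± 0.57). On simulated data in which few genes changed, 0% of genes with a 4-fold difference of effects were recovered. In the measured data the stromal gene PDGFRB passed at 2.36 ± 0.29 (limma adjusted p = 0.0477). The test therefore had little power for differences of about that size, and 0 passing members do not exclude them.

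Across the label under vehicle, limma called 1 member higher and 1 lower at an adjusted p below 0.05 on arrays labelled BTG1 shRNA, where 8.46% of all clusters were higher and 6.21% lower, 14.7% together. The 2 and 2 vehicle arrays did not overlap for 17 members that were higher and 12 that were lower, against 24.5% and 34.3% of all clusters. With quantile normalization the split was 1 higher and 3 lower, and with array medians subtracted 0 higher and 1 lower. The median log2 difference was -0.02 for members and -0.15 for all clusters. Among clusters with a mean level of at least 7, it was 0.12 for members and 0.23 for all. The 5th to 95th percentiles of the differences were -0.71 to 0.98 for members and -1.06 to 1.37 for all clusters.

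UQCRC2, a core protein of complex III, was higher on the arrays labelled BTG1 shRNA. It had 11.17 and 11.72 on these vehicle arrays, against 10.00 and 10.75 on control vehicle arrays, a log2 difference of 1.07 ± 0.29 (limma adjusted p = 0.0496). ATP5MC2 was lower, at 7.69 and 7.59 against 8.39 and 8.32, a log2 difference of -0.71 ± 0.16 (limma adjusted p = 0.0242). Neither pair of groups overlapped. UQCRC2 passed in 6 of 15 alternatives and ATP5MC2 in 7 of 15, with log2 differences of 0.69 to 1.45 and -0.91 to -0.67. No member passed when the first control vehicle array, either control prednisolone array or either vehicle array labelled BTG1 shRNA was left out; 6 passed without the second control vehicle array, and 1 without either prednisolone array labelled BTG1 shRNA.

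Members that did not pass under vehicle included COX7A2, with 10.95 and 10.98 against 9.64 and 10.13 (log2 difference 1.08 ± 0.36, limma adjusted p = 0.0944). COX7A2L had 8.75 and 8.81 against 9.25 and 9.75 (-0.72, limma adjusted p = 0.107, -0.97 to -0.47 over the alternatives). SDHC had 7.27 and 7.31 against 2.82 and 6.78 (2.49 ± 1.22, limma adjusted p = 0.227), and the difference was 0.51 without the first control vehicle array and 4.47 without the second, where it passed (limma adjusted p = 0.0152). The dim isoforms COX4I2 and COX8C had log2 differences of -0.79 ± 0.35 and -0.74 ± 0.26. Without the first control vehicle array these were -0.23 and -0.49. COX4I2, COX6A2, COX6B2, COX7A1, COX7B2 and COX8C each had their highest or second highest value of all 8 arrays on the first control vehicle array, which is also the array where genes of other tissues had the highest median, 4.65 against 3.75 to 4.14 elsewhere; its part in these isoform values was not tested.

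Under prednisolone, limma called 2 members higher and 2 lower on arrays labelled BTG1 shRNA, where 10% of all clusters were higher and 7.51% lower, 17.5% together. The prednisolone arrays did not overlap for 12 members that were higher and 12 that were lower, against 28.4% and 21.5% of all clusters. With quantile normalization 3 were higher and 3 lower. The median log2 difference was 0.08 for members and 0.04 for all clusters. Among clusters with a mean level of at least 7, it was 0.15 for members and 0.05 for all. NDUFS8, a core subunit of the arm of complex I that carries electrons to ubiquinone, had 8.30 and 8.18 on the prednisolone arrays labelled BTG1 shRNA, against 7.40 and 6.84 on control prednisolone arrays. The groups were separate, with a log2 difference of 1.12 ± 0.22 (limma adjusted p = 0.0107). COX8A, the common form of complex IV subunit 8, had 10.06 and 9.81 against 9.38 and 9.14, a log2 difference of 0.67 ± 0.18 (limma adjusted p = 0.0419).

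COX7A2L and COX6C were the 2 lower genes, also without overlap. COX7A2L, a COX7A relative that helps assemble supercomplexes of complexes III and IV, had 8.45 and 8.59 against 9.68 and 10.22, a log2 difference of -1.43 ± 0.25 (limma adjusted p = 0.00623). COX6C, a nuclear subunit of complex IV, had 10.45 and 10.30 against 11.20 and 11.69, a log2 difference of -1.07 ± 0.23 (limma adjusted p = 0.0148). COX7A2L passed in 14 of 15 alternatives, NDUFS8 in 13, COX6C in 12 and COX8A in 5. None of the 4 passed without the second control prednisolone array, where the log2 differences were -1.16, 0.85, -0.83 and 0.55 in that order and the adjusted p values 0.0507, 0.0779, 0.115 and 0.27. A total of 1 member passed when the first of the prednisolone arrays labelled BTG1 shRNA was left out and 2 when the second was.

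Other members did not pass under prednisolone. UQCRC2 had 11.41 and 11.61 against 10.61 and 10.72 (log2 difference 0.84 ± 0.29, limma adjusted p = 0.0988), and passed in 5 of 15 alternatives. ATP5F1D, the delta chain of the F1 head, had 9.66 and 9.44 against 9.23 and 8.45 (0.71 ± 0.27, limma adjusted p = 0.131). With the first control prednisolone array left out ATP5F1D passed at 1.11 (limma adjusted p = 0.0323), and with the second left out its difference was 0.32. NDUFA5 had 5.94 and 6.48 against 6.76 and 8.29, and SDHC had 4.95 and 6.97 against 6.67 and 8.16; their log2 differences were -1.31 ± 0.69 and -1.45 ± 1.22. Leaving out single arrays gave -2.08 to -0.55 for NDUFA5 and -2.47 to -0.44 for SDHC. SDHA averaged 9.99 ± 0.06 against 10.61 ± 0.25 (SD, n = 2 each; limma adjusted p = 0.0922).

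**Figure D3:**
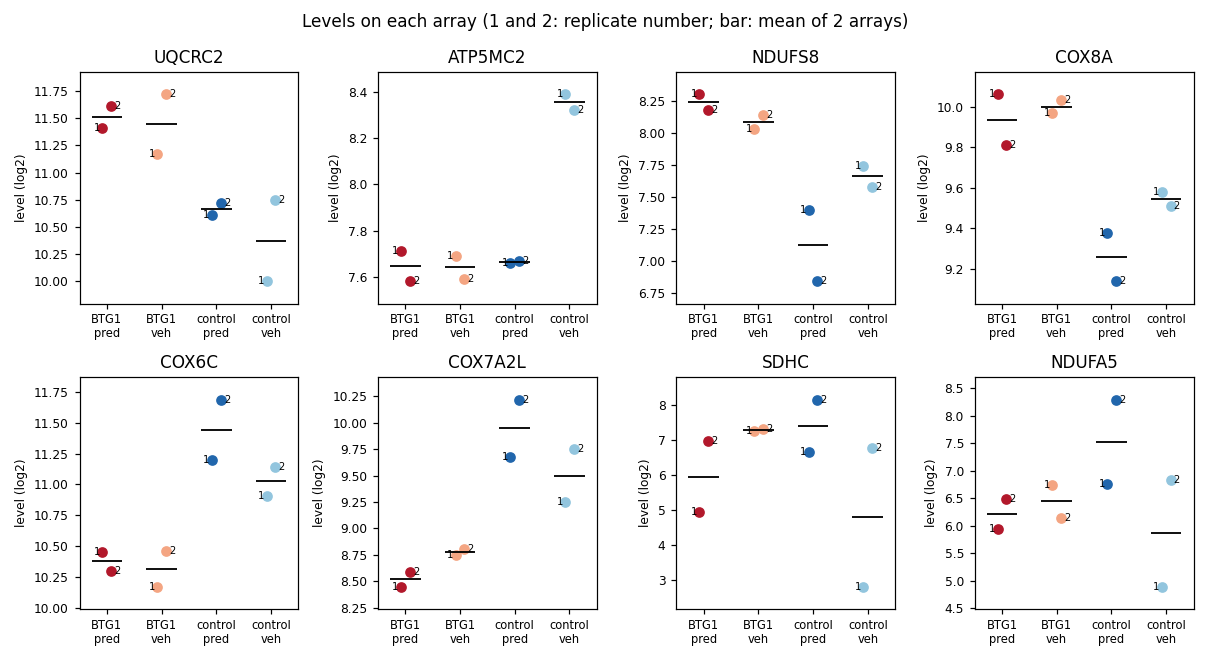
Log2 level on each array of 8 genes, with the replicate number beside each point and a bar at the mean of 2 arrays, for arrays labelled BTG1 shRNA (BTG1) and control shRNA arrays with prednisolone (pred) or vehicle (veh). NDUFS8, COX8A and UQCRC2 are higher and COX6C and COX7A2L lower on all 4 arrays labelled BTG1 shRNA, ATP5MC2 stands apart on control vehicle arrays alone, and the first control vehicle array is lowest in SDHC and NDUFA5.

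The label comparisons under vehicle and under prednisolone share no array. The members' differences in them had the same sign for 32 of 63 (50.8%), with Pearson's r of 0.01 and Spearman's rho of 0.25 across genes, against 58.1%, 0.78 and 0.48 for all clusters. Genes are not independent replicates, and SDHC and NDUFA5, with opposite signs in the comparisons, lie far from the other members. In a contrast averaged over both treatments, which was added after the values were seen, 4 members were higher and 3 lower by limma (14.1% and 9.74% of all clusters). The higher genes were NDUFS8 (log2 difference 0.78 ± 0.16, limma adjusted p = 0.00876), UQCRC2 (0.96 ± 0.21, 0.0125), COX8A (0.57 ± 0.13, 0.0156) and the complex I accessory subunit NDUFB10 (0.58 ± 0.14, 0.0184). The lower genes were COX7A2L (-1.07 ± 0.18, 0.00334), COX6C (-0.89 ± 0.16, 0.00516) and the dim COX8C (-0.63 ± 0.18, 0.043). With array medians subtracted, 2 were higher and 4 lower, and with quantile normalization 3 and 5. NDUFS8, COX7A2L and COX6C passed in all 12 alternatives, UQCRC2 in 10, COX8A in 7, NDUFB10 in 6, and COX8C in 5 of 11. The count of members passing was 10 (5 higher and 5 lower) without the second control vehicle array. It was 3 without the second vehicle array labelled BTG1 shRNA and 4 without the second control prednisolone array.

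All 4 arrays labelled BTG1 shRNA were above all 4 control arrays for 5 members (7.94%, against 14.2% of all clusters): UQCRC1, UQCRC2, NDUFB10, NDUFS8 and COX8A. All 4 were below for 4 members (6.35%, against 10% of all clusters): COX6C, COX7A2L, COX8C and ATP5F1C. UQCRC1, the other core protein of complex III, had 9.33, 9.24, 9.50 and 9.19 against 8.97, 8.74, 9.13 and 8.92, with an averaged log2 difference of 0.38 ± 0.14 (limma adjusted p = 0.0991). ATP5F1C, the gamma chain that turns inside the F1 head, had 9.89, 10.38, 10.26 and 10.40 against 10.53, 10.60, 10.52 and 10.59. Its averaged difference was -0.33 ± 0.15 (limma adjusted p = 0.172), and ATP5F1A averaged 11.38 ± 0.17 against 11.35 ± 0.09 (SD, n = 4 each).

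**Figure D4:**
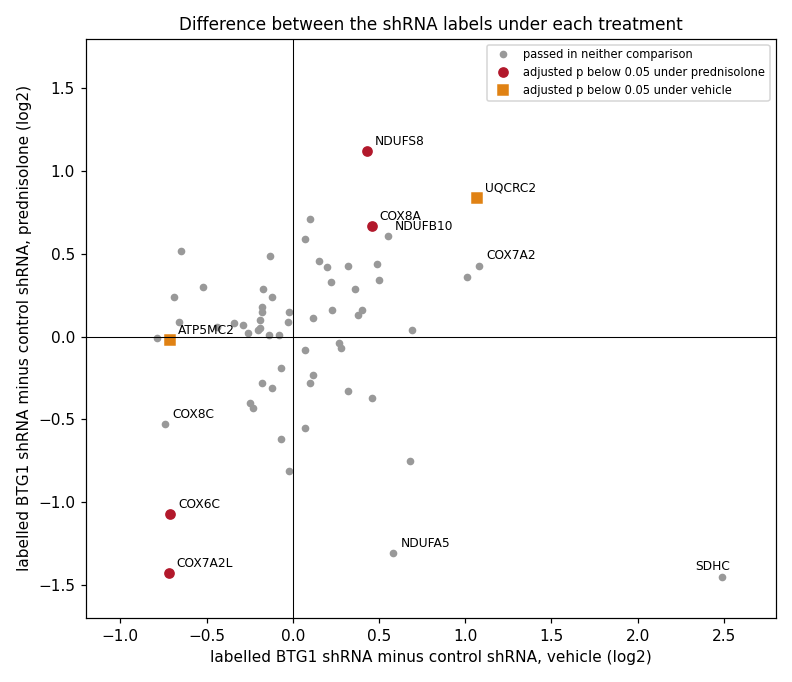
Log2 difference, arrays labelled BTG1 shRNA minus control shRNA arrays, of each of the 63 genes under vehicle (x axis) and under prednisolone (y axis), with colours and shapes for the genes that passed limma's test. COX6C and COX7A2L lie at lower left and NDUFS8, COX8A and UQCRC2 at upper right, while SDHC and NDUFA5 change sign between the axes.

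By complex, the averaged contrast (14.1% of all clusters higher and 9.74% lower) had 1 of 9 complex IV members higher and 2 lower, and COX5A averaged 10.48 ± 0.39 against 10.30 ± 0.30 under prednisolone and 10.37 ± 0.04 against 10.55 ± 0.04 under vehicle. Complex III had 1 of 5 members higher and 0 lower, and all 5 differences were above 0, with a median of 0.31 on the log2 scale. Complex I had 1 of 4 core and 1 of 23 accessory members higher and none lower, with medians of 0.19 and 0.06, and all 4 core differences were above 0. Among all clusters with a mean level of at least 7, 2854 of 4712 averaged differences were above 0, with a median of 0.14. The dim cluster shared by UQCRB and UQCRBP1, which was not a member, had log2 differences of 0.17 under vehicle and -0.50 under prednisolone. The complexes are too small to read a count of 1 or 2, or a shared sign, against all clusters. Complex II and both parts of ATP synthase had 0 members that passed in the averaged contrast by limma; at an unadjusted p below 0.05 there was 1, in the Fo, stalk and membrane group.

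Clusters assigned to several genes at once were not members, but 28 of them carried a symbol that begins as the rule asks. The cluster shared by KDM5B and COX7C had 7.71 and 8.09 on prednisolone arrays labelled BTG1 shRNA and 8.26 and 8.06 on vehicle arrays with that label, against 4.55 and 4.70 on control prednisolone arrays and 3.75 and 3.39 on control vehicle arrays. Its log2 differences were 3.28 under prednisolone and 4.59 under vehicle (limma adjusted p = 6.12e-05 and 1.7e-05), and which gene the signal belongs to was not tested. The cluster shared by ATP5MK and MIR1307 had 7.28 and 7.51 against 8.13 and 8.89 under prednisolone, and 7.81 and 7.15 against 8.52 and 8.90 under vehicle (limma adjusted p = 0.0555 and 0.0444). The cluster of ATP5F1B, the catalytic beta chain, and 2 small nucleolar RNAs stayed at 11.13 to 11.31 on all 8 arrays.

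**Figure D5:**
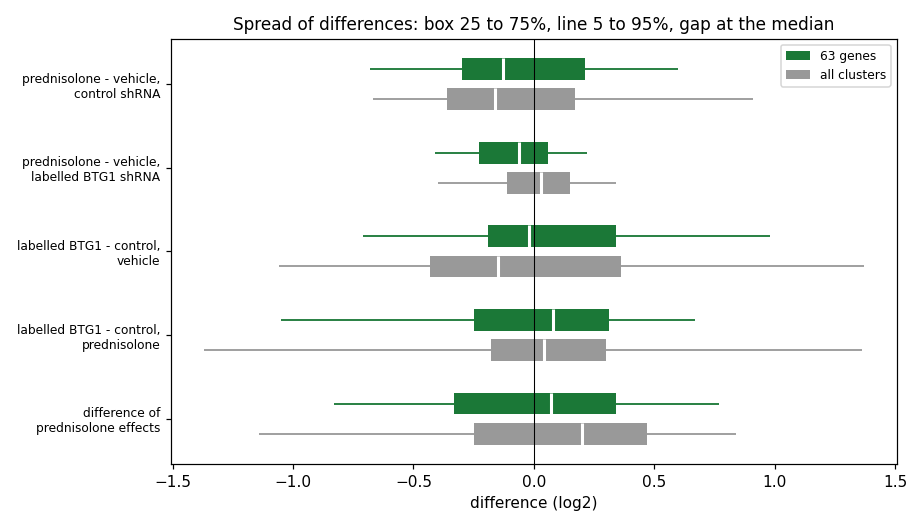
Spread of log2 differences in each of 5 comparisons (rows) for the 63 genes (upper box) and all 17881 clusters (lower box), with boxes from the 25th to the 75th percentile, lines from the 5th to the 95th and a gap at the median. The members' lines are shorter than those of all clusters in both comparisons across the label, -0.71 to 0.98 against -1.06 to 1.37 under vehicle.

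Neighbouring parts of the pathway were read from lists chosen with earlier results of these data known. For prednisolone in control cells, limma called 0 of 37 assembly factors, 0 of 18 genes of the citric acid cycle and pyruvate entry, and 0 of 19 electron carriers and exchangers; 1.52% of all clusters were called. At an unadjusted p below 0.05 it gave 4, 3 and 5 genes, or 10.8%, 16.7% and 26.3% of these lists, against 14.1% of all clusters. Of 20 nuclear regulators of respiration 0 rose and 2 fell, where 166 and 105 of 17881 clusters did so: PPRC1, a coactivator of the PGC1 family, by 1.65 on the log2 scale (adjusted p = 0.0104), and TWNK, the mitochondrial DNA helicase, by 1.14 (adjusted p = 0.0213). PPRC1 had 5.98 and 5.94 on control prednisolone arrays, against 7.44 and 7.78 on control vehicle arrays. On the arrays labelled BTG1 shRNA, PPRC1 had 7.27 and 7.40 with prednisolone, against 7.31 and 7.59 with vehicle, and the difference of effects was 1.54 ± 0.28 (limma adjusted p = 0.123).

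Across the label, limma called 8.46% of all clusters higher and 6.21% lower under vehicle, and 10% and 7.51% under prednisolone. Against these shares, 4 of 37 assembly factors were higher and 0 lower under vehicle, and 3 were higher and 1 lower under prednisolone. UQCC2, an assembly factor of complex III, had 8.08, 8.03, 8.14 and 8.06 on the arrays labelled BTG1 shRNA, against 4.12, 4.11, 4.47 and 4.61 on the control arrays. Its log2 differences were 3.94 ± 0.16 under prednisolone and 3.56 ± 0.16 under vehicle (limma adjusted p = 1.07e-05 and 1.5e-05), beyond that of any complex III subunit measured here. CYCS, the gene of cytochrome c, was higher under prednisolone (1.68 ± 0.22, limma adjusted p = 0.0017). Its vehicle arrays labelled BTG1 shRNA, at 7.06 and 7.41, were also above the control vehicle arrays, at 6.46 and 6.16. In the averaged contrast CYCS differed by 1.30 ± 0.16 (limma adjusted p = 0.000684). Of 18 citric acid cycle genes, 3 were higher and 1 lower under prednisolone, and 2 were higher and 1 lower under vehicle, among them OGDH (1.73 ± 0.18 and 1.51 ± 0.18). Of 19 carriers and exchangers, 4 were higher and 1 lower under prednisolone, and 5 were higher and 2 lower under vehicle, and the ADP/ATP exchanger SLC25A4 was among the higher ones in both (1.43 ± 0.32 and 1.65 ± 0.32). COQ2 of this list was lower in both (-1.14 ± 0.19 and -1.27 ± 0.19), and the citric acid cycle gene DLST was lower under vehicle (-1.27 ± 0.32). Of 20 nuclear regulators, 3 were higher and 2 lower under prednisolone, among them PPRC1 (1.38 ± 0.20) and LRPPRC (-1.32 ± 0.31). Under vehicle 0 were higher and 1 lower.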

How the data were processed

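Gene-level values of 8 exon arrays in 4 groups of 2 were used. The authors deposited log2 values per transcript cluster, made with RMA in Partek per the submitters' processing notes, with core meta-probe sets on hg18 per the labels; no source used here names versions. Nearly all deposited values, on another scale than log2 as they stand, had lost the decimal point. It was restored behind digit 1, or behind digit 2 if a value starts with 1. Of 143048 values, 153 had kept a point. The correlation between arrays was 0.446 to 0.587 as deposited and 0.872 to 0.995 after restoring. No signal over background was available, so the number of arrays limits the precision. Clusters were named from the platform annotation. Clusters with several symbols (28 by the rule) and 10 assembly factor clusters, SDHAF genes included, were left out, and the brighter of 2 COX7A2 clusters was used.

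All 17881 clusters were fitted with limma 3.58.1 in R 4.3.3 (4 group means, empirical Bayes, Benjamini-Hochberg over all clusters, threshold 0.05), with 4 residual degrees of freedom. The procedure was tested on simulated data. Python 3.11.15, pandas 2.3.3 and matplotlib 3.10.9 served for counts, motifs and plots. Alternatives were quantile normalization, subtraction of array medians, leaving out clusters with a mean below 5, trended robust variances, a replicate block, fitting only the 2 groups compared, and leaving out each array. Named genes were those that passed and those with the largest positive and negative differences in each comparison, with core subunits and paralogous isoforms given at least by their levels; other genes were named after their values were seen. Members and lists were chosen with earlier results of these data known.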

Additional observations from a re-analysis of the deposited data

How the results depend on the processing

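The count of members passing limma's test was 0 in control prednisolone, 0 in prednisolone on the arrays labelled BTG1 shRNA, and 0 in the difference of effects; it was 2 across the label under vehicle and 4 under prednisolone. The labels do not say that replicate numbers pair the arrays. Deviations of same-numbered arrays correlated above 0 in all 6 pairs of groups, at 0.00722 (control prednisolone with vehicle labelled BTG1 shRNA) and at 0.263 to 0.593 in the other 5, a hint of shared variation that 2 numbers cannot settle. A replicate block gave 1 member for prednisolone in control cells, 6 across the label under vehicle, 8 under prednisolone and 12 in the averaged contrast (8 higher and 4 lower, against 4 and 3 without the block), and left the other counts and the medians in place. Under vehicle across the label, quantile normalization gave 4, array medians subtracted 1, clusters with mean below 5 left out 1, and only the 2 groups compared 0. Leaving out single arrays gave 0 to 2 for prednisolone in control cells, 0 to 6 across the label under vehicle and 0 to 6 under prednisolone. The members' median of the difference of effects, 0.07, was -0.11 with array medians subtracted, and -0.09 to 0.09 without single arrays, the lowest without vehicle array 1 labelled BTG1 shRNA. For prednisolone on arrays labelled BTG1 shRNA, COX7A1 ranged from -0.05 to 0.77 and ATP5PD from -0.30 to 0.86 without single arrays, the lowest without prednisolone array 1. The causes were not tested. Over all clusters, 271 passed for prednisolone in control cells, against 755 with the block, 16 with only the 2 groups, and 40 to 770 without single arrays. Across the label under vehicle 2623 passed, against 4553 with the block and 1289 to 5958 without single arrays, and under prednisolone 3134, against 1746 to 3891 without single arrays. For the difference of effects 24 passed, against 96 with the block, 39 with trended robust variances, 14 with array medians subtracted and 0 to 24 without single arrays.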
